A study of Mus musculus with 12 samples.

Results

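Cells carry sensors in the cytosol that bind RNA or DNA lying where the cell's own nucleic acid is scarce, such as viral genomes or nucleic acid leaked from mitochondria or the nucleus. The 9 mouse genes described here were taken by symbol from the deposited count table: the RIG-I-like helicases Ddx58 (RIG-I), Ifih1 (MDA5) and Dhx58 (LGP2), their mitochondrial adaptor Mavs, the double-stranded RNA-dependent kinase Eif2ak2 (PKR), the Z-form nucleic acid sensor Zbp1, and 3 genes of the PYHIN family, Aim2, Ifi203 and Ifi204. They are 9 of 55487 gene IDs in the table, and all 9 passed the filter on low counts that left 19182 genes for testing. RIG-I and MDA5 bound to RNA act through MAVS to switch on interferon genes, and many sensor genes are themselves interferon-inducible, so that a cell exposed to interferon makes more of them. AIM2 bound to DNA assembles an inflammasome, a complex that activates caspase-1. Microglia, the macrophages of the brain and retina, are known to express members of all these families.

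The 12 libraries were made from BV2, mouse microglia immortalised as a cell line, and fall into 4 groups of 3. One group (HG+CD200Fc) had high glucose with CD200Fc, a fusion protein of the ligand CD200 that binds the inhibitory receptor CD200R on myeloid cells, at 50 ng/mL; the second (HG) had high glucose alone, the third (NG+CD200Fc) normal glucose with CD200Fc at 50 ng/mL, and the fourth (NG) normal glucose alone. The labels state neither glucose concentrations nor the length of treatment, and name no Fc-only or osmotic control. No label tells whether replicates were grown as different cultures, so each p-value reflects only how far these libraries spread, which may be technical. The treatment text of the labels describes perfused mice, retinas and sorting of GFP-positive cells, while source, cell line and cell type name BV2 microglia.

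Libraries held 21454087 to 31905649 counts assigned to genes. Ribosomal RNA genes took 1.49% of counts in HG replicate 2 and 0.0530 to 0.119% in the other 11 libraries. Of 13 microglial and macrophage markers 12 passed the filter. Csf1r had 870 to 1053 CPM (counts scaled to the same total in every library) and Cd68 1216 to 1678 CPM. Cx3cr1 and P2ry12 passed at only 0.709 to 4.22 and 0.676 to 2.62 CPM, and Tmem119 at 12.5 to 16.7 CPM. Sall1, a transcription factor of brain microglia, had 1 count over 12 libraries. The summed level of these 13 markers was 3851 to 4071 CPM in HG+CD200Fc, 3975 to 4517 CPM in HG, 4255 to 4359 CPM in NG+CD200Fc and 4466 to 4665 CPM in NG. Of 8 photoreceptor markers 3 passed, and the summed level, mostly Pde6b, was 37.0 to 40.3 CPM in HG+CD200Fc, 29.4 to 33.1 CPM in HG, 28.7 to 37.4 CPM in NG+CD200Fc and 32.3 to 40.0 CPM in NG. Of 4 endothelial markers 3 passed, led by Kdr at 4.79 to 8.14 CPM. Their summed level was 9.21 to 10.9 CPM in HG+CD200Fc, 12.0 to 12.9 CPM in HG, 10.0 to 11.2 CPM in NG+CD200Fc and 8.73 to 9.67 CPM in NG, thus highest in HG like the sensor genes below; its part in the results was not tested. Lists for Müller glia and astrocytes, retinal neurons, T and NK cells and B cells had 3 of 5, 1 of 5, 2 of 3 and 1 of 3 markers past the filter. The summed level for Müller glia and astrocytes was mostly Glul (139 to 166 CPM). It was 141 to 147 CPM in HG+CD200Fc, 148 to 167 in HG, 147 to 152 in NG+CD200Fc and 152 to 156 in NG. No marker of any list was at 0 counts over all libraries.

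Promoter sequences, from 250 bases before to 50 bases after the annotated start of transcription, could be matched for 6 of the 9 genes in RefSeq (GRCm38.p6); Dhx58, Zbp1 and Ifi204 were not matched. Each was searched on both strands for the core of the interferon-stimulated response element (ISRE), GAAANNGAAA, an element found in many interferon-inducible genes, and for the gamma-activated site TTCNNNGAA. Shown here are 4 promoters that hold the ISRE core, set in capitals, and that of Mavs, which has no match in this window.
Ddx58, chr4:40239776-40240075, minus strand: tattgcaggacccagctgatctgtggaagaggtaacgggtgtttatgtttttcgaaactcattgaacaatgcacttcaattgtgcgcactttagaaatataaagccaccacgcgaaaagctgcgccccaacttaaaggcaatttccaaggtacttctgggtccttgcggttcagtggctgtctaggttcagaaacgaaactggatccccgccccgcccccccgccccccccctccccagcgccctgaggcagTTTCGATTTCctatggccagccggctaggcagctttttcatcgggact
Ifih1, chr2:62646206-62646505, minus strand: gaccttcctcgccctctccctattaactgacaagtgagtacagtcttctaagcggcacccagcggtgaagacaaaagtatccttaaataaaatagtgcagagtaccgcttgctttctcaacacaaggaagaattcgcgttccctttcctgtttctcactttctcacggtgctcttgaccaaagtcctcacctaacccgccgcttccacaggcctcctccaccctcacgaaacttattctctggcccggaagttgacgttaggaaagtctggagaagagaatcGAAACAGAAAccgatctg
Eif2ak2, chr17:78882523-78882822, minus strand: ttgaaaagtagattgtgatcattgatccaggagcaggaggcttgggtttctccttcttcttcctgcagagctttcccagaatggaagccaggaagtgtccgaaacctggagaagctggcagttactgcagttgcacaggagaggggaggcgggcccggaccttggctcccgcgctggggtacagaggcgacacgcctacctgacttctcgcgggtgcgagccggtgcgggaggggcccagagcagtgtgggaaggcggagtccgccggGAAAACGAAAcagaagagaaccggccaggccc
Ifi203 (second of 2 annotated starts), chr1:173942443-173942742, minus strand: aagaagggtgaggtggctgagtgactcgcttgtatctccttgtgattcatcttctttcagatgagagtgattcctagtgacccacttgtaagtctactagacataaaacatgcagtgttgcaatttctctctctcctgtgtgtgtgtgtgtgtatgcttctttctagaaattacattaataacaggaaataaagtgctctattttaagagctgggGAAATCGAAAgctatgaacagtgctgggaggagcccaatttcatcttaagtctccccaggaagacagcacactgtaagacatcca
Mavs, chr2:131233813-131234112, plus strand: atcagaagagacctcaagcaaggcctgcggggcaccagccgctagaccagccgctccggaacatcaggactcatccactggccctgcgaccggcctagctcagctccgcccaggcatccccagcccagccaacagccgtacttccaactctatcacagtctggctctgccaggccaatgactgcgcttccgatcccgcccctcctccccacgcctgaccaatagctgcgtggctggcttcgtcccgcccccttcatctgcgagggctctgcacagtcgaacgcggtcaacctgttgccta
The core lay within the first transcribed bases in 3 of them, at positions +3 to +12 in Ddx58 (on the opposite strand), +33 to +42 in Ifih1 and +19 to +28 in Eif2ak2, counted from the start of transcription. In Ifi203 it lay upstream, at -35 to -26 of the second start, and the window of the first start had no match. The window of Aim2, chr1:173420354-173420653, had none either. It does not include the Aim2 gene start given below, 173350879, which was not searched. Of all 32851 RefSeq promoter windows, 3.44% held the core on at least 1 strand. The gamma-activated site was found in the Eif2ak2 window alone among these genes, at -178 to -170, and in 8.3% of all windows. These are matches of letters and no binding was measured.

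In high glucose alone, 8 of the 9 genes were higher than in normal glucose, beside 11.7% of all genes tested, and Aim2 did not pass the test. The helicases and the PYHIN genes Ifi203 and Ifi204 were 1.74- to 2.07-fold higher in HG than in NG, Mavs and Eif2ak2 1.17- and 1.20-fold higher, and the scarce Zbp1 2.38-fold higher with a wide error. In high glucose with CD200Fc, 7 of the 9 were lower than in high glucose alone, beside 8.30% of all genes. In normal glucose 0 of the 9 and 0% of all genes passed the test for CD200Fc. The summed level of the 9 genes was 378 ± 23.0 CPM in HG+CD200Fc, 575 ± 12.6 CPM in HG, 382 ± 17.2 CPM in NG+CD200Fc and 379 ± 14.5 CPM in NG (SD, n = 3 each). These are bulk libraries, in which fewer cells of a type and less RNA per cell cannot be told apart.

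**Figure D1:**
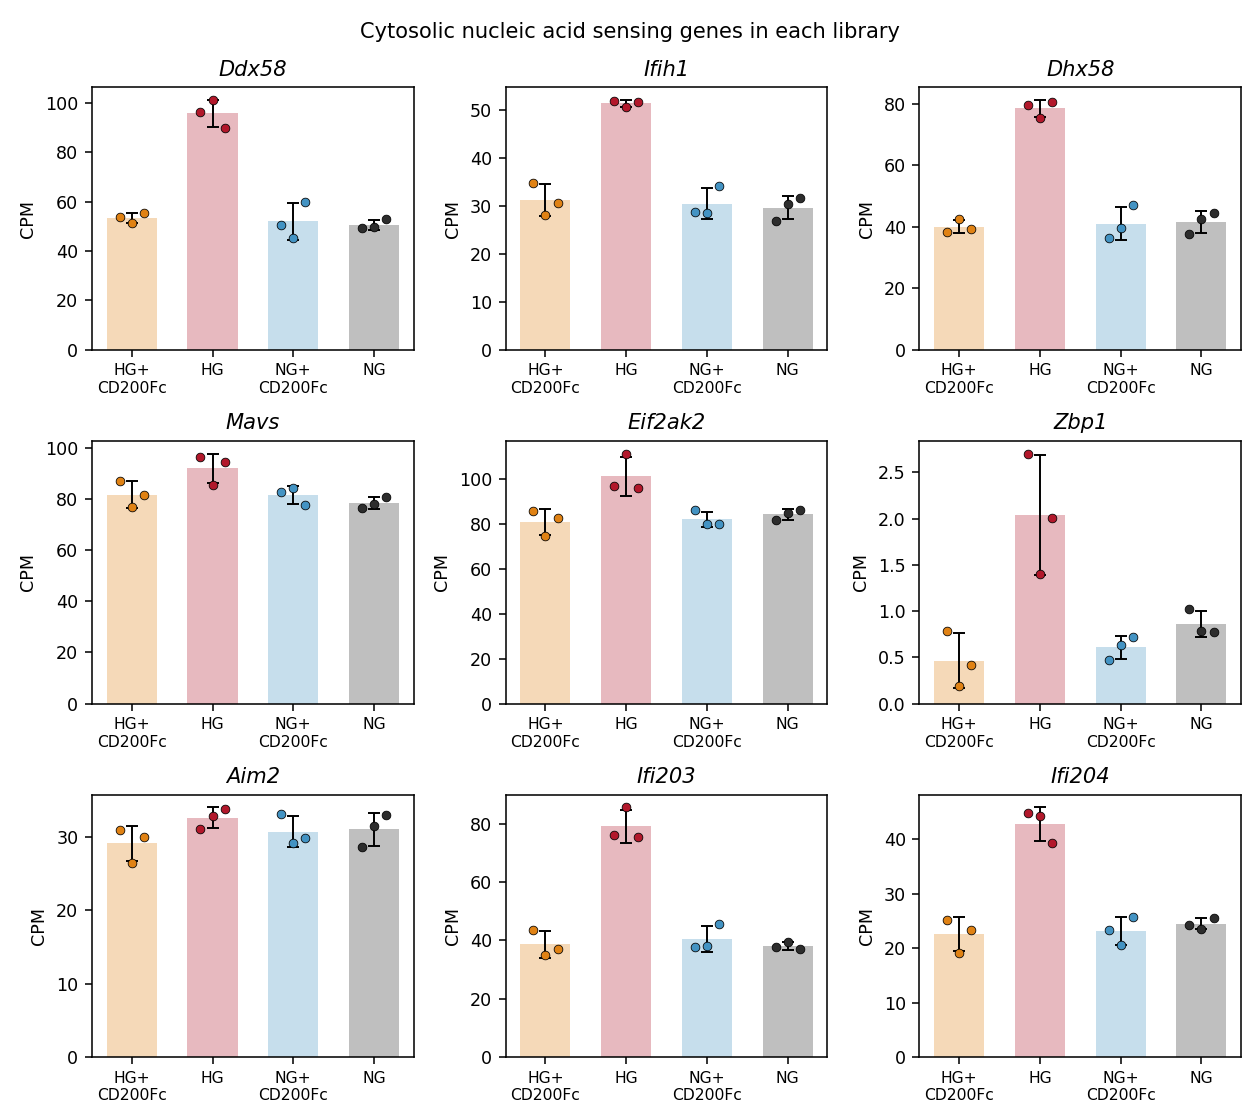
Level of each of the 9 genes in CPM (vertical axes, each from 0) in the 4 groups; points are libraries, bars means and error bars SD (n = 3). HG stands above the other 3 groups for Ddx58, Ifih1, Dhx58, Ifi203, Ifi204 and Zbp1, and by a smaller margin for Eif2ak2. For Mavs HG overlaps HG+CD200Fc, and the groups lie close together for Aim2.

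All 9 were read against the whole table with edgeR's quasi-likelihood test at an adjusted p under 0.05 (Benjamini-Hochberg over 19182 genes). Of all genes tested, 11.7% were higher and 12.9% lower in HG than in NG, against 8 of the 9 sensor genes higher and 0 lower. Without NG replicate 1, 7.25% of all genes were higher and 7 of the 9. The 3 HG libraries lay above all 3 NG libraries for 8 of the 9, as they did for 19.9% of all genes. For HG+CD200Fc over HG, 9.46% of all genes were higher and 8.30% lower, against 0 and 7 of the 9. The 3 HG+CD200Fc libraries lay below all 3 HG libraries for 8 of the 9, all but Mavs, and for 16.0% of all genes. For NG+CD200Fc over NG, 0% of all genes and 0 of the 9 passed; at an unadjusted p under 0.05 there were 0 of the 9 and 1147 genes in all (5.98%), and DESeq2 and limma-voom called 0 of the 9. For HG+CD200Fc over NG+CD200Fc, 8.30% of all genes (1593) passed in either direction and 0 of the 9, with 0 at an unadjusted p under 0.05 (23.6% of all genes) and 0 by DESeq2 or limma-voom; the count over all genes was 277, 646, 344 and 665 without HG+CD200Fc replicate 2, HG+CD200Fc replicate 3, NG+CD200Fc replicate 3 or NG+CD200Fc replicate 1. HG+CD200Fc over NG gave 20.3% of all genes (3903, or 2217 without NG replicate 1) and 0 of the 9, again with 0 at an unadjusted p under 0.05 (32.3% of all genes) and 0 by DESeq2 or limma-voom. The median log2 fold change of the 9 genes was 0.81 in HG over NG, beside 0.021 over all genes tested, and -0.84 in HG+CD200Fc over HG, beside -0.021. These 2 comparisons share the HG libraries. Without HG replicate 2, the library with more ribosomal RNA, 8 of the 9 were higher in HG than in NG, beside 8.49% of all genes in that fit, and 8 lower in HG+CD200Fc than in HG, beside 8.04%.

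**Figure D2:**
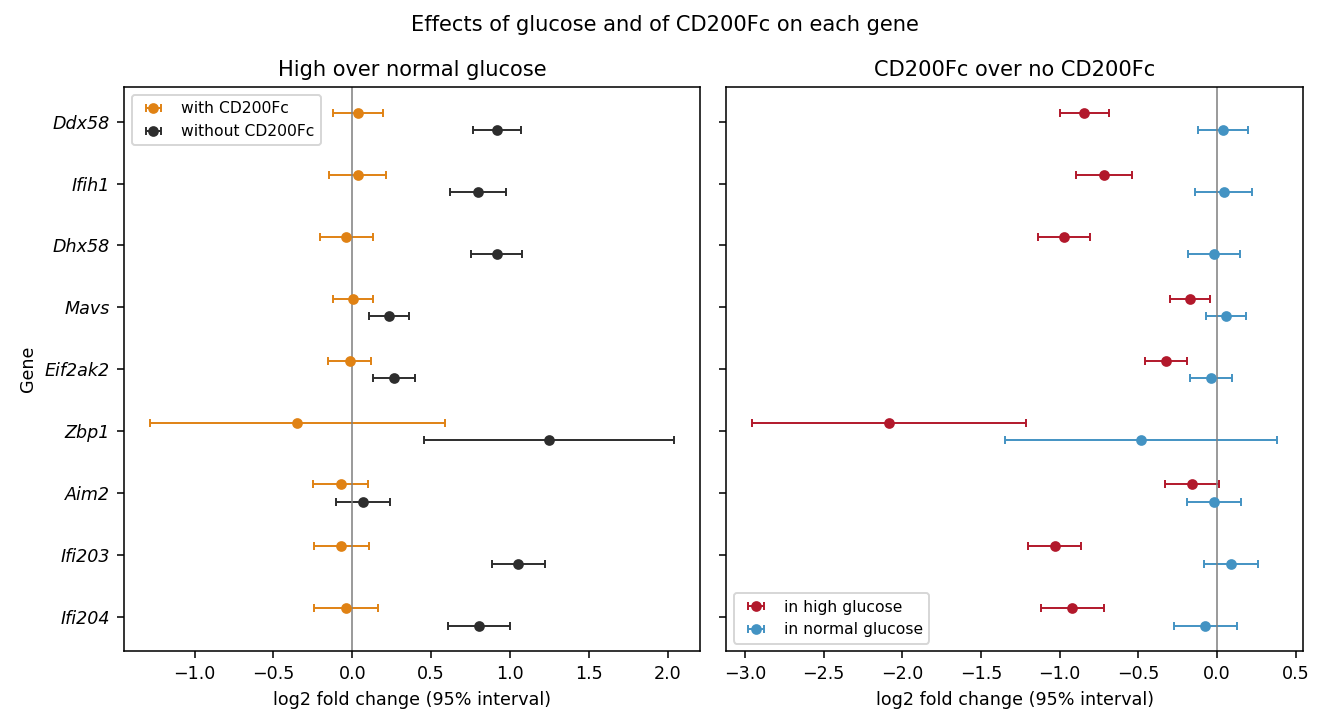
Log2 fold change of each gene with its 95% interval (horizontal axes) for high over normal glucose, with and without CD200Fc (left), and for CD200Fc over none, in high and in normal glucose (right). Without CD200Fc, glucose intervals lie above 0 for all but Aim2, and with CD200Fc all cross 0; CD200Fc intervals lie below 0 in high glucose for all but Aim2 and cross 0 in normal glucose for all 9.

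The 3 helicases form the RNA-sensing core. Ddx58 (ENSMUSG00000040296, chromosome 4, 40203773 to 40239828, minus strand, GRCm38, as are all positions here) encodes RIG-I, which binds short double-stranded RNA with a 5' triphosphate. Its level was 53.6, 51.2 and 55.2 CPM in HG+CD200Fc, 96.3, 101.0 and 90.0 CPM in HG, 50.6, 45.4 and 59.9 CPM in NG+CD200Fc, and 49.5, 49.6 and 53.0 CPM in NG. All 3 HG libraries were higher than the other 9, which overlapped. The log2 fold change was 0.92 ± 0.075 (SE) in HG over NG (edgeR, adjusted p = 1.19e-09) and -0.84 ± 0.075 in HG+CD200Fc over HG (edgeR, adjusted p = 7.97e-09).

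Ifih1 (ENSMUSG00000026896, chromosome 2, 62595798 to 62646255, minus strand) encodes MDA5, which forms filaments on long double-stranded RNA. It had 34.7, 28.2 and 30.6 CPM in HG+CD200Fc, 51.9, 50.5 and 51.6 CPM in HG, 28.7, 28.4 and 34.2 CPM in NG+CD200Fc, and 26.9, 30.3 and 31.5 CPM in NG. Again the HG libraries stood clear of the rest. In HG over NG the log2 fold change was 0.80 ± 0.086 (edgeR, adjusted p = 1.28e-07) and in HG+CD200Fc over HG it was -0.72 ± 0.086 (edgeR, adjusted p = 7.99e-07).

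Dhx58 (ENSMUSG00000017830, chromosome 11, 100694884 to 100704271, minus strand) encodes LGP2, which lacks the signalling domain of the other helicases and modulates them. Its level was 38.4, 42.5 and 39.3 CPM in HG+CD200Fc, 79.6, 75.5 and 80.6 CPM in HG, 36.3, 39.7 and 47.0 CPM in NG+CD200Fc, and 37.7, 42.7 and 44.5 CPM in NG, with HG apart and the other groups overlapping. The log2 fold change was 0.92 ± 0.080 in HG over NG (edgeR, adjusted p = 3.09e-09) and -0.97 ± 0.080 in HG+CD200Fc over HG (edgeR, adjusted p = 1.66e-09). The antisense gene Dhx58os shares 141 of its exon bases and had 98 counts over 12 libraries, against 15648 for Dhx58; the sources used here do not say whether counting used strand.

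In CPM, not divided by length, Ddx58 averaged above Dhx58 in every group. Per kilobase of annotated exon the helicases kept their order in all 12 libraries, Dhx58 above Ddx58 above Ifih1. The ratio of levels per length ranged from 1.53 to 1.93 for Dhx58 over Ddx58, from 1.79 to 2.31 for Ddx58 over Ifih1 and from 2.76 to 3.90 for Dhx58 over Ifih1. Dhx58 over Ddx58 averaged 1.62 ± 0.14 in HG+CD200Fc, 1.77 ± 0.16 in HG, 1.71 ± 0.17 in NG+CD200Fc and 1.77 ± 0.11 in NG (SD, n = 3 each), and the groups overlapped in this ratio. Ddx58 over Ifih1 was 1.79 to 2.11 in HG+CD200Fc, 2.02 to 2.31 in HG, 1.85 to 2.04 in NG+CD200Fc and 1.89 to 2.13 in NG, which also overlapped. Dhx58 over Ifih1 was 2.76 to 3.76 in HG+CD200Fc, 3.73 to 3.90 in HG, 3.16 to 3.49 in NG+CD200Fc and 3.50 to 3.52 in NG. In this ratio all 3 HG libraries lay above the 6 in normal glucose and overlapped HG+CD200Fc; it was not tested.

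Mavs (ENSMUSG00000037523, chromosome 2, 131234063 to 131248025, plus strand) encodes the adaptor on mitochondria through which RIG-I and MDA5 signal. Its level was 87.2, 76.8 and 81.6 CPM in HG+CD200Fc, 96.5, 85.8 and 94.5 CPM in HG, 83.0, 84.6 and 77.7 CPM in NG+CD200Fc, and 76.5, 78.2 and 80.9 CPM in NG. HG lay above NG and overlapped HG+CD200Fc. The log2 fold change was 0.23 ± 0.062 in HG over NG (edgeR, adjusted p = 0.00673; 0.0561 without NG replicate 1). In HG+CD200Fc over HG it was -0.17 ± 0.062 and missed the threshold (edgeR, adjusted p = 0.0560), which it passed in 5 of 20 alternatives (adjusted p 0.0160 to 0.0384).

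Eif2ak2 (ENSMUSG00000024079, chromosome 17, 78852564 to 78882573, minus strand) encodes PKR, a kinase that stops translation through eIF2alpha when double-stranded RNA binds it. It had 85.4, 74.4 and 82.6 CPM in HG+CD200Fc, 96.5, 111 and 95.7 CPM in HG, 85.9, 79.9 and 79.8 CPM in NG+CD200Fc, and 81.5, 84.7 and 86.2 CPM in NG. The HG libraries lay above all others, by a smaller margin than for the helicases. The log2 fold change was 0.27 ± 0.065 in HG over NG (edgeR, adjusted p = 0.00346) and -0.32 ± 0.066 in HG+CD200Fc over HG (edgeR, adjusted p = 7.16e-04). Gm26637, on the opposite strand, shares 174 exon bases with Eif2ak2. The ribosomal RNA gene n-R5s29, also on the opposite strand, shares 47 and had 0 counts over 12 libraries.

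Zbp1 (ENSMUSG00000027514, chromosome 2, 173206612 to 173218923, minus strand) encodes a sensor of Z-form RNA and DNA that can start necroptosis through RIPK3. It was the scarcest of the 9, with 21, 4 and 9 counts in HG+CD200Fc, 79, 37 and 51 in HG, 12, 16 and 23 in NG+CD200Fc, and 24, 20 and 19 in NG. That made 0.785, 0.193 and 0.412 CPM in HG+CD200Fc, 2.70, 1.40 and 2.01 CPM in HG, 0.476, 0.628 and 0.714 CPM in NG+CD200Fc, and 1.02, 0.782 and 0.772 CPM in NG. The HG libraries were higher than all others, and in CPM those of NG+CD200Fc lay just below those of NG. In HG over NG the log2 fold change was 1.25 ± 0.39 (edgeR, adjusted p = 0.0175), and it missed the threshold without HG replicate 1 (0.97, adjusted p = 0.111), NG replicate 2 (1.19, 0.0555) or NG replicate 3 (1.16, 0.0696). The largest fall among the 9 by value was that of Zbp1 in HG+CD200Fc over HG, at -2.08 ± 0.42 (edgeR, adjusted p = 5.48e-04), with a 95% interval of -2.95 to -1.22.

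Of the PYHIN genes, which carry a pyrin domain, a DNA-binding HIN domain or both, Ifi203 and Ifi204 passed in HG over NG and in HG+CD200Fc over HG, and Aim2 passed in neither; the difference between genes was not tested. Aim2 (ENSMUSG00000037860, chromosome 1, 173350879 to 173466040, plus strand), the inflammasome sensor, had 30.9, 26.4 and 29.9 CPM in HG+CD200Fc, 31.0, 32.9 and 33.8 CPM in HG, 33.1, 29.1 and 29.8 CPM in NG+CD200Fc, and 28.6, 31.4 and 33.0 CPM in NG. HG and NG overlapped, while the 3 HG+CD200Fc libraries lay just below the 3 of HG. The log2 fold change was 0.070 ± 0.083 in HG over NG, with a 95% interval of -0.10 to 0.24 (edgeR, adjusted p = 0.590), and -0.16 ± 0.084 in HG+CD200Fc over HG (edgeR, adjusted p = 0.213).

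Ifi203 (ENSMUSG00000039997, chromosome 1, 173920407 to 173942672, minus strand) had 43.7, 35.2 and 37.0 CPM in HG+CD200Fc, 76.2, 85.6 and 75.2 CPM in HG, 37.9, 38.0 and 45.6 CPM in NG+CD200Fc, and 37.7, 39.5 and 37.0 CPM in NG. Every HG library was above every other library. Its log2 fold change was 1.05 ± 0.082 in HG over NG (edgeR, adjusted p = 3.96e-10) and -1.03 ± 0.082 in HG+CD200Fc over HG (edgeR, adjusted p = 9.52e-10), the smallest p-values among the 9 genes in both comparisons.

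Ifi204 (ENSMUSG00000073489, chromosome 1, 173747293 to 173766943, minus strand) encodes p204, an interferon-inducible mouse protein that binds DNA. Its level was 25.2, 19.2 and 23.3 CPM in HG+CD200Fc, 44.9, 44.2 and 39.3 CPM in HG, 23.4, 20.6 and 25.7 CPM in NG+CD200Fc, and 24.3, 23.5 and 25.6 CPM in NG. As for Ifi203, HG stood apart and the other groups overlapped. The log2 fold change was 0.81 ± 0.096 in HG over NG (edgeR, adjusted p = 5.49e-07) and -0.92 ± 0.097 in HG+CD200Fc over HG (edgeR, adjusted p = 9.53e-08). Ifi203, Ifi204 and the other Ifi200 genes are close paralogs on chromosome 1, and Ifi203 shares 37 exon bases with Mndal on the same strand, so the counts of each are uncertain where reads fit several of them.

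In normal glucose the effect of CD200Fc was near 0 for 8 genes, with log2 fold changes between -0.074 (Ifi204) and 0.090 (Ifi203) and 95% intervals that reached no further than -0.28 and 0.26. Zbp1 had -0.49 ± 0.42, with an interval of -1.35 to 0.38. The smallest adjusted p of the 9 was 0.863 (edgeR). Whether CD200Fc acted differently in the 2 glucose conditions was tested as the difference of its effects in high minus in normal glucose. That difference passed for 5 of the 9 genes, all lower, while 3.58% of all genes passed in that direction. It was -0.88 ± 0.11 for Ddx58 (edgeR, adjusted p = 3.98e-06), -0.76 ± 0.12 for Ifih1 (1.79e-04), -0.95 ± 0.11 for Dhx58 (2.66e-06), -1.12 ± 0.12 for Ifi203 (3.86e-07) and -0.85 ± 0.14 for Ifi204 (1.92e-04), all on the log2 scale. For Eif2ak2 it was -0.28 ± 0.093 (edgeR, adjusted p = 0.0638), for Mavs -0.23 ± 0.088 (0.130), for Zbp1 -1.60 ± 0.60 (0.111) and for Aim2 -0.14 ± 0.12 (0.565). Eif2ak2 passed in 5 of 19 alternatives (adjusted p 0.0399 to 0.0493), Mavs under limma-voom (0.0414) and Zbp1 without HG+CD200Fc replicate 1 (-2.24, 0.0282).

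With CD200Fc in both groups, high over normal glucose gave log2 fold changes between -0.074 (Aim2) and 0.036 (Ddx58) for 8 genes, and -0.35 ± 0.46 for Zbp1, with a smallest adjusted p of 0.651 among the 9 (edgeR). The Zbp1 value was -0.99 without HG+CD200Fc replicate 1, -0.0055 without HG+CD200Fc replicate 2 and -0.21 without NG+CD200Fc replicate 3. Against NG cells, the HG+CD200Fc cells had log2 fold changes between -0.11 (Ifi204) and 0.077 (Ifih1) for 8 genes, with 95% intervals that reached no further than -0.32 and 0.26. Zbp1 was at -0.83 ± 0.45, with an interval of -1.75 to 0.081 (edgeR, adjusted p = 0.192). It was -1.48 without HG+CD200Fc replicate 1 (edgeR, adjusted p = 0.0429) and -0.49 without HG+CD200Fc replicate 2 (0.536). Within groups, replicate 2 of HG+CD200Fc was the lowest of its group for 8 of the 9 genes, as it was for 34.9% of the 14506 genes averaging at least 1 CPM. Replicate 1 of HG+CD200Fc was the highest of its group for 7 of the 9, as for 34.6%. Replicate 3 of NG+CD200Fc was the highest for 6 of the 9, as for 38.2%. In NG, replicate 3 was the highest for 7 of the 9, as for 30.6%, and replicate 1 the lowest for 6, as for 31.7%.

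Per kilobase of exon, Mavs was the most abundant of the 9, at 25.0 CPM per kb averaged over 12 libraries, followed by Eif2ak2 at 17.0, Dhx58 at 15.4, Ddx58 at 8.93, Aim2 at 8.81, Ifi204 at 7.94, Ifi203 at 7.31, Ifih1 at 4.36 and Zbp1 at 0.281. The lowest Mavs library (22.9 CPM per kb) was above the highest Eif2ak2 library (21.7), and the highest Zbp1 library (0.766) was below all of Ifih1. Every other pair of neighbours in this order overlapped over the 12 libraries. The order also depended on the group: Dhx58 averaged 12.2 ± 0.65 CPM per kb in HG+CD200Fc, 24.0 ± 0.84 in HG, 12.5 ± 1.66 in NG+CD200Fc and 12.7 ± 1.08 in NG, while Eif2ak2 averaged 15.8 ± 1.12 CPM per kb in HG+CD200Fc, 19.8 ± 1.70 in HG, 16.0 ± 0.68 in NG+CD200Fc and 16.5 ± 0.47 in NG (SD, n = 3 each). Dhx58 was thus above Eif2ak2 in HG and below it in the other 3 groups. Levels per kilobase divide by all annotated exon bases of a gene, whichever transcripts the cells make. In CPM without this division, Eif2ak2 averaged 80.8 in HG+CD200Fc, 101 in HG, 81.9 in NG+CD200Fc and 84.1 in NG. Mavs averaged 81.9, 92.3, 81.8 and 78.6 CPM in the same groups.

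**Figure D3:**
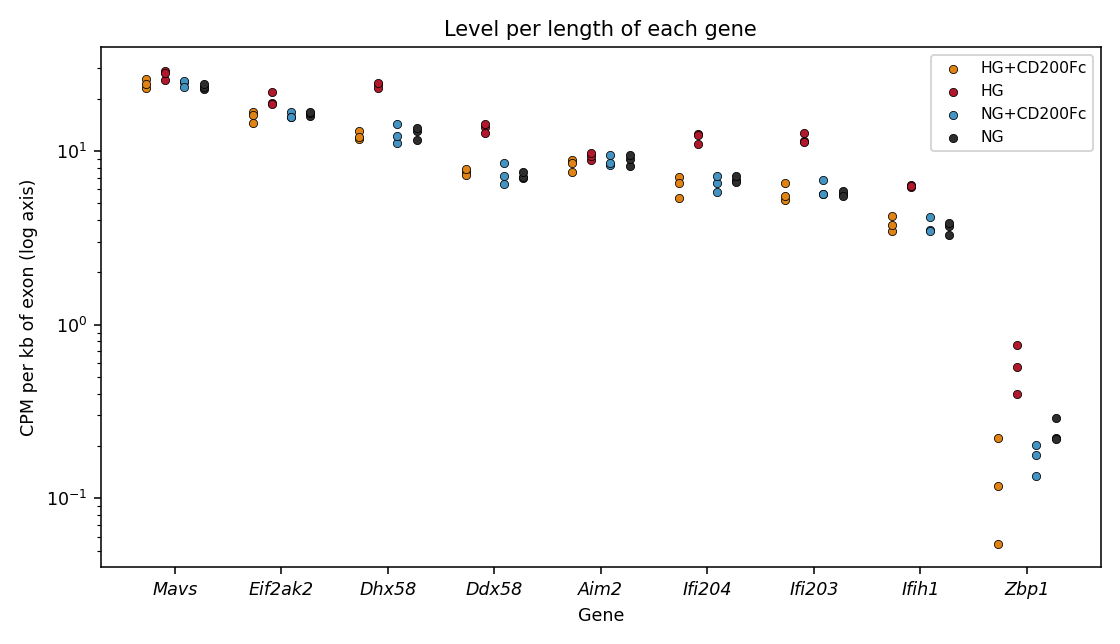
Level of each gene in CPM per kb of exon (log axis), genes ordered by their mean over 12 libraries and points coloured by group. Mavs has the highest mean, 25.0 CPM per kb, and Zbp1 the lowest, 0.281; in HG, Dhx58 passes Eif2ak2.

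Ddx58, Ifih1, Dhx58, Ifi203 and Ifi204 had like patterns across the 12 libraries. Likeness was measured as the root mean square difference of log2 CPM after centring each gene on its own mean, and it was 0.098 to 0.157 for the 10 pairs among these 5 genes, against 0.232 to 0.412 between each of them and Mavs, Eif2ak2 or Aim2. The 3 pairs among Mavs, Eif2ak2 and Aim2 had differences of 0.10 to 0.11, but this measure is small between any genes that vary little. With all genes ranked from the nearest, Mavs, Eif2ak2 and Aim2 stood at ranks 206 to 922 from each other. The 5 genes stood at ranks 2 to 69 from each other. These 5 and 3 were grouped after their values were seen, and the 12 libraries share the same groups and depths. Of the 14505 other genes averaging at least 1 CPM, the most like Ddx58 were Sp100 (0.062), Parp14 and Pltp; for Dhx58 they were Pltp (0.069), Sp100 and Tap1. The closest to Ifih1 were Oasl1 (0.068), Dtx3l and Oas3, and the closest to Ifi204 were Samd9l (0.064), Irgm2 and Ifi44. Ifi203 was nearest to its neighbour Mndal (0.10), then to Ddx58 and Parp14. Mavs was nearest to Snx33 (0.049), Helb and Npc1, Eif2ak2 to Ptprc (0.047), Stap1 and Pfkm, and Aim2 to Prepl (0.044), Ttc9c and Nsmaf. The median difference from all other genes ranged from 0.209 for Aim2 to 0.495 for Ifi203. Zbp1 averaged under 1 CPM and was left out.

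Around the helicases, 15 other RIG-I pathway genes were tested, and they split: 5 were higher and 4 lower in HG than in NG, with a median log2 fold change of 0.024, beside 11.7% and 12.9% of all genes. In HG+CD200Fc 2 were higher and 4 lower than in HG (median -0.078), beside 9.46% and 8.30% of all genes. Irf7, the interferon-inducible transcription factor downstream of MAVS, averaged 73.8 ± 2.24 CPM in HG+CD200Fc, 166 ± 9.02 in HG, 70.6 ± 5.88 in NG+CD200Fc and 73.5 ± 3.05 in NG (SD, n = 3 each). Its constitutive relative Irf3 did not pass, at -0.057 ± 0.077 in HG over NG (edgeR, adjusted p = 0.638). Ddx60, a helicase reported to promote RIG-I signalling, had 1.28 ± 0.11 in HG over NG and -1.35 ± 0.11 in HG+CD200Fc over HG (edgeR, adjusted p = 3.09e-09 and 1.88e-09). The kinase gene Ikbke, whose product phosphorylates these factors, had 0.92 ± 0.064 and -0.51 ± 0.064 in the same comparisons (4.36e-11 and 1.32e-06). In HG+CD200Fc Ikbke remained higher than in NG (0.41 ± 0.064, edgeR, adjusted p = 1.08e-04). Among the 4 genes lower in HG, Dhx15 had -0.38 ± 0.056 in HG over NG and 0.20 ± 0.056 in HG+CD200Fc over HG (edgeR, adjusted p = 1.52e-05 and 0.0110). The 5 genes higher in HG did not all pass as lower in HG+CD200Fc than in HG.

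The second route to interferon runs from cytosolic DNA through cGAS and STING. Of 11 genes tested, 1 was higher and 4 lower in HG than in NG (median -0.067), beside 11.7% and 12.9% of all genes, and 3 were higher and 2 lower in HG+CD200Fc than in HG (median -0.059), beside 9.46% and 8.30% of all genes. Cgas, which makes the messenger cGAMP on DNA, averaged 53.1 ± 4.24 CPM in HG+CD200Fc, 42.6 ± 1.68 in HG, 50.2 ± 4.87 in NG+CD200Fc and 50.2 ± 1.35 in NG, and was lower in HG than in NG (-0.23 ± 0.074; edgeR, adjusted p = 0.0213) and higher in HG+CD200Fc than in HG (0.32 ± 0.074; 0.00288). Sting1, the cGAMP receptor, had 0.13 ± 0.099 in HG over NG (edgeR, adjusted p = 0.363) and fell in HG+CD200Fc relative to HG (-0.39 ± 0.10; 0.00639). Samhd1, a phosphohydrolase that breaks down deoxynucleotides, was the 1 gene of this list higher in HG (0.33 ± 0.051; edgeR, adjusted p = 2.21e-05).

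For these lists too, 11.7% of all genes were higher and 12.9% lower in HG than in NG, and 9.46% higher and 8.30% lower in HG+CD200Fc than in HG. Of the other PYHIN genes 8 were tested. In HG 6 were higher and 0 lower than in NG (median 0.92), and in HG+CD200Fc 4 were lower and 0 higher than in HG (median -0.96). Some of these genes were scarce, with as few as 123 counts over 12 libraries, which limits the precision of their fold changes. Ifi208, with 462 counts, had 1.10 ± 0.28 in HG over NG and -1.19 ± 0.28 in HG+CD200Fc over HG. Another, with 260 counts, also passed as higher in HG but had 0.34 ± 0.43 in HG+CD200Fc over HG. Mndal averaged 15.8 ± 0.46 CPM in HG+CD200Fc, 31.0 ± 2.27 in HG, 17.5 ± 1.19 in NG+CD200Fc and 16.4 ± 0.77 in NG (SD, n = 3 each). Among 14 double-stranded RNA effectors, 10 were higher and 2 lower in HG than in NG (median 0.65) and 11 lower and 0 higher in HG+CD200Fc than in HG (median -0.59). Oasl2, a member of the oligoadenylate synthetase family, averaged 82.8 ± 7.32 CPM in HG+CD200Fc, 214 ± 7.20 in HG, 86.2 ± 10.2 in NG+CD200Fc and 86.2 ± 6.73 in NG.

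Of the downstream partners of AIM2 and ZBP1, 1 of 10 tested was higher in HG than in NG (Gsdmd, the pore-forming gasdermin D, 0.23 ± 0.058; edgeR, adjusted p = 0.00471) and 1 lower (Casp1, caspase-1, -0.22 ± 0.070; 0.0188), close to the 11.7% and 12.9% of all genes. In HG+CD200Fc over HG 4 were lower and 0 higher, beside 8.30% and 9.46% of all genes, with the smallest p for Casp8, caspase-8 (-0.43 ± 0.071; edgeR, adjusted p = 6.56e-05), with Mlkl, the executor of necroptosis, at -0.29 ± 0.074 (0.00541). Ripk3, the kinase that ZBP1 engages, was under the filter. Of 10 genes of interferon output tested, 8 were higher and 0 lower in HG than in NG (median 0.58), and 6 lower and 0 higher in HG+CD200Fc than in HG (median -0.58); the shares over all genes are those given above. The interferon gene Ifnb1 itself was under the filter, with 32 counts over the 12 libraries, and so were the 3 Ifna genes listed. The last list held 7 genes of the toll-like receptors for RNA and DNA, which sense in endosomes, and of their partners. Of these, 3 were higher and 1 lower in HG than in NG, beside 11.7% and 12.9% of all genes. In HG+CD200Fc 2 were lower and 0 higher than in HG, beside 8.30% and 9.46%. Tlr3, the double-stranded RNA receptor, had 0.53 ± 0.17 in HG over NG and -0.77 ± 0.18 in HG+CD200Fc over HG (edgeR, adjusted p = 0.0250 and 0.00251). Tlr9 had 0.60 ± 0.12 and -0.095 ± 0.12 in the same comparisons (edgeR, adjusted p = 0.00239 and 0.682). The other receptors passed in neither. Also higher in HG was Unc93b1, and the 1 lower was Myd88, both partners rather than receptors. In NG+CD200Fc over NG 0 genes passed in each of these 7 lists.

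**Figure D4:**
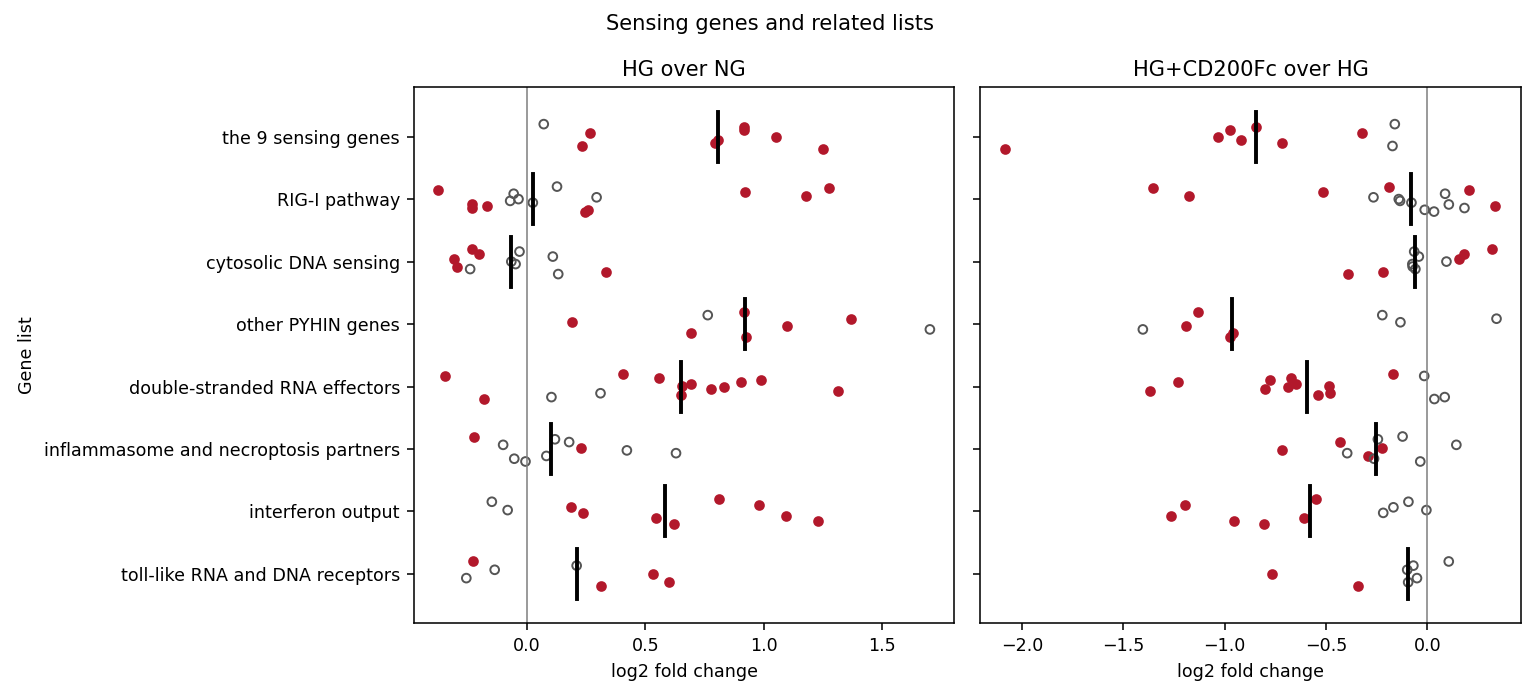
Log2 fold change (horizontal axes) of each tested gene of the 9 sensing genes and 7 related lists in HG over NG (left) and HG+CD200Fc over HG (right); filled points passed an adjusted p under 0.05, open points did not, and black bars are medians. The medians of the sensing genes, other PYHIN genes, double-stranded RNA effectors and interferon output lie at 0.58 to 0.92 on the left and -0.96 to -0.58 on the right, and that of cytosolic DNA sensing is at -0.067 and -0.059.

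The authors' deposited table gives log2 fold changes of 0.93 for Ddx58, 0.24 for Mavs, 1.26 for Zbp1 and 0.079 for Aim2 in HG over NG. At a false discovery rate under 0.05, the authors' deposited table calls the same 8 genes higher in HG than in NG and the same 7 lower in HG+CD200Fc than in HG, with Mavs at 0.0557 in that comparison.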

How the data were processed

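RNA of 12 BV2 libraries was depleted of ribosomal RNA, primed with random hexamers and sequenced on an Illumina NovaSeq, per the labels' protocols. STAR, Subread featureCounts, Salmon, edgeR and limma are named in the submitters' processing notes, with the mouse build GRCm38; the sources used here give neither the strand setting nor the annotation release. The deposited table holds whole-number counts per gene, and the authors' log2 fold changes and p-values, which are shown only beside the values computed here. Of 55774 lines, 287 repeated ones were dropped, which left 55487 gene IDs; 0 per-sample columns were left without a sample.

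Counts were fitted with edgeR 4.0.16 in R 4.3.3: filterByExpr with a minimum count of 10, TMM scaling, robust quasi-likelihood fit of 4 group means over 12 libraries (biological coefficient of variation 0.0908), and 6 contrasts, the last being the difference between the CD200Fc effects in high and normal glucose. Benjamini-Hochberg adjustment ran over all 19182 genes. Errors of fold changes are model SE, and CPM use TMM library sizes. The fit was tested on simulated data with known changes. DESeq2 1.42.0, limma-voom 3.58.1, other scalings and filters, a replicate block and leaving out each library were tried. Each library counted as 1 sample. Replicates of a group differed by more than sampling noise (chi-square per degree of freedom 3.63 to 36.2). That spread can be technical and does not tell whether replicates were different cultures. Gene positions, exon lengths and overlaps come from GENCODE M21 on GRCm38, and promoters from RefSeq on GRCm38.p6.

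The 9 genes and the 7 related lists were chosen with earlier results of these data known. All 9 genes are named; of a list, up to 4 genes that passed with the smallest p in HG over NG and up to 2 in HG+CD200Fc over HG could be named, and Cgas, Sting1 and Irf3 always. Genes most like a sensor gene are the 3 with the smallest difference in log2 CPM (prior count 2).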

Additional observations from a re-analysis of the deposited data

Results flagged for a closer look

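The effect of CD200Fc in high glucose (HG+CD200Fc over HG) differed from its effect in normal glucose (NG+CD200Fc over NG) for 5 of the 9 genes, by a test of the difference itself in edgeR. All 5 were lower, beside 3.58% of all genes. On the log2 scale the difference was -0.88 for Ddx58, -0.76 for Ifih1, -0.95 for Dhx58, -1.12 for Ifi203 and -0.85 for Ifi204. Each of these 5 passed in all 12 fits that left out 1 library and in the other alternatives run. The cause was not tested. With 3 libraries a group, no single library was tested for standing apart from its group.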

How the results depend on the processing

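Over every alternative run, 7 to 8 sensor genes were higher in HG over NG, beside 5.83 to 15.7% of all genes. In HG+CD200Fc over HG 7 to 8 were lower, beside 4.57 to 11.3%. The difference between the CD200Fc effects passed for 5 to 7, all lower, beside 2.01 to 4.97%. The count was 0 throughout for NG+CD200Fc over NG, where at most 0.00826% of all genes were higher and 0.0509% lower. It was also 0 throughout for HG+CD200Fc over NG+CD200Fc, beside 0.97 to 7.32% of all genes higher and 0.422 to 6.22% lower. For HG+CD200Fc over NG the count was 0, and 0 to 1 when 1 library was left out. The 1 gene was Zbp1 without HG+CD200Fc replicate 1, where it was lower, beside 9.87% of all genes in that fit. Of 1068 recomputed fold changes of the 9 genes, 1014 kept direction and side of the threshold, 4 lost the call, 13 gained it and 37 changed sign; the last were all at an adjusted p of at least 0.559 and at most 0.090 in size. The cause of these changes was not tested.

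Over all genes, HG+CD200Fc over NG+CD200Fc gave 2597 genes with limma-voom against 1593, and 277 to 2288 when 1 library was left out. HG over NG gave 3326 to 5045 when 1 library was left out, against 4720. HG+CD200Fc over NG gave 2217 to 4217 when 1 library was left out, against 3903. NG+CD200Fc over NG gave 21 genes with no filter, 9 with only the groups compared, 1 with limma-voom and 0 to 8 when 1 library was left out, against 0. Upper quartile scaling moved the share of called genes that were higher to 69.3%, against 56.0%, in HG+CD200Fc over NG+CD200Fc, and to 58.6%, against 47.0%, in HG+CD200Fc over NG.

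With the replicate number as a block, NG+CD200Fc over NG gave 2 genes, HG+CD200Fc over NG+CD200Fc 2314, HG over NG 5258 and HG+CD200Fc over HG 3842. Of the sensor genes 8 were higher in HG over NG, beside 12.8% of all genes in that fit. In HG+CD200Fc over HG 8 were lower, with Mavs added, beside 9.56%. Eif2ak2 also passed for the difference between the CD200Fc effects, in the lower direction, beside 4.27% of all genes. The numbers were not taken as pairs in the main fit. Deviations of same-numbered libraries correlated at -0.069 to 0.184 (median 0.032), over 0.1 in 5 of 18 pairs. Those of differently numbered libraries correlated at -0.207 to 0.244 (median -0.017), over 0.1 in 3 of 36 pairs. Of 12 libraries, 7 correlated best with their own number. Whether same-numbered libraries share a batch was not tested.

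Signs that changed by setting were those of Aim2 (0.015), Ddx58 (-0.00012) and Ifih1 (-0.014) in NG+CD200Fc over NG with limma-voom, of Dhx58 (0.039) and Mavs (-0.010) in HG+CD200Fc over NG+CD200Fc with limma-voom, and there of Eif2ak2 with upper quartile scaling (0.018) and Mavs with no filter (-0.0062). When 1 library was left out, log2 fold changes ranged in HG over NG from -0.0017 to 0.10 for Aim2. In NG+CD200Fc over NG they ranged from -0.075 to 0.028 for Aim2, -0.090 to 0.126 for Ddx58, -0.142 to 0.059 for Dhx58, -0.016 to 0.135 for Ifi203, -0.166 to 0.0039 for Ifi204 and -0.063 to 0.089 for Ifih1. In HG+CD200Fc over NG+CD200Fc they ranged from -0.064 to 0.151 for Ddx58, -0.128 to 0.073 for Dhx58, -0.061 to 0.037 for Eif2ak2, -0.170 to 0.026 for Ifi203, -0.131 to 0.062 for Ifi204, -0.054 to 0.128 for Ifih1, -0.046 to 0.046 for Mavs and -0.99 to -0.0055 for Zbp1. In HG+CD200Fc over NG they ranged from -0.083 to 0.081 for Ifi203, -0.014 to 0.140 for Ifih1 and -1.48 to -0.49 for Zbp1. Counts as low as 4 limit the precision for Zbp1.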
